A study of Danio rerio with 12 samples.

Results

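Extraocular muscle (EOM), the group of small muscles that turn the eye, was compared between zebrafish lacking desmin and wild-type (WT) zebrafish at 20 months of age. The comparison took the 6 libraries whose titles name EOM, out of 12 in the series, with 3 libraries of each genotype. The mutants carried desma-/-;desmb-/-, that is, mutations in both zebrafish desmin genes, and the WT fish were of strain AB and derived from the line used to make the double mutant. The labels give strain AB for the mutants too. The series description speaks of a desmin knock-down, while the genotype labels of the samples name the double mutant. Trunk muscle of the same genotypes and age had 3 WT and 3 mutant libraries. It served only to check the tissue label and to set effects in EOM beside those in trunk. RNA was poly-A selected and sequenced with strand information, and the labels name myofibres as the cell type although whole dissected muscle was processed. The titles number the samples as groups 1 to 3 and do not say how many fish went into each, so p-values measure the spread between these samples, which may be technical.

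Desmin is the intermediate filament protein of muscle. It wraps the Z-discs, the planes that anchor the actin filaments, and links myofibrils to each other, to mitochondria and nuclei, and to the costameres, the adhesion sites at the cell membrane. Loss of desmin causes a myopathy in humans and mice, with myofibril disarray and mislocated mitochondria, and dystrophic muscle is commonly entered by macrophages and filled with connective tissue. EOM is often spared in muscular dystrophies, and the series was made to ask why.

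The labels were first checked against the data. Levels are given as CPM, a gene's reads as a share of the reads counted in its library, scaled to a fixed total, with library sizes adjusted by the trimmed mean of M-values (TMM). The symbol table names both desmin genes DES. The copy DES (ENSDARG00000058656.6) was at 573, 685 and 649 CPM in WT and 26.1, 36.1 and 42.6 CPM in mutant libraries. All mutant libraries lay far below all WT libraries (edgeR log2 fold change −4.18 ± 0.21, adjusted p = 0.000205; fold changes are mutant over WT, ± SE). The other copy, DES (ENSDARG00000005221.8), had 4 to 14 reads in each library, at 0.106, 0.089 and 0.0597 CPM in WT and 0.174, 0.166 and 0.166 CPM in mutant libraries, and was not called (edgeR log2 fold change 0.98 ± 0.45, adjusted p = 0.299). The tissue label was checked with MSC (ENSDARG00000110016.1), a head muscle transcription factor also called musculin, which had a mean level of 26.1 ± 3.01 CPM in the WT and 31.6 ± 0.621 CPM in the mutant libraries (± SD, n = 3). In trunk it was at 0.205 ± 0.0837 CPM and 0.653 ± 0.112 CPM in the same order. The creatine kinase of myofibres ckmb (ENSDARG00000040565.7) was at 12639 ± 1034 and 10278 ± 417 CPM in EOM. The summed level of posterior Hox genes, which mark trunk position, came to 0.147 ± 0.0321 CPM for EOM against 39.1 CPM for trunk in WT fish.

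The reads counted in genes came to 50789582, 69946116 and 52557652 in WT and 63614514, 59720012 and 52260609 in mutant replicates 1, 2 and 3. A pair of WT libraries stood apart. Nuclear-encoded respiratory chain transcripts summed to 28935, 44714 and 29029.7 CPM in WT and 31995, 28104 and 24562 CPM in mutant replicates 1, 2 and 3, so that WT replicate 2 was the highest. WT replicate 1 held the most photoreceptor transcripts of the eye, with 572, 339 and 71.5 CPM in WT and 101.7, 208 and 276 CPM in mutant replicates 1, 2 and 3.

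In all, 675 of 18980 tested genes (3.56%) were called, at an adjusted p under 0.05 over all genes tested. Of them 409 (2.15% of tested genes) were higher and 266 (1.4%) were lower in mutants, and the median log2 fold change of all tested genes was −0.02. With unscaled library totals the share of calls that were higher moved from 60.6% to 73.7% and the median to 0.08. The groups did not overlap in 24.9% of all tested genes, 13.3% with mutants higher and 11.6% with mutants lower. Of the 675 calls, 151, 513 and 426 remained without WT replicates 1, 2 and 3 and 124, 126 and 237 without mutant replicates 1, 2 and 3. Each of those fits set 2 libraries against 3. Of the called genes 92 were in at least 1 of 41 lists of functions and 20 lists of cell type markers, and 583 were in none. DESeq2 called 1468 genes, 798 higher and 670 lower, and 3515 of the 18980 tested genes had an unadjusted edgeR p under 0.05. The DESeq2 and unadjusted counts given for lists below are to be read beside these totals, not beside the 3.56% called by edgeR.

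**Figure D1:**
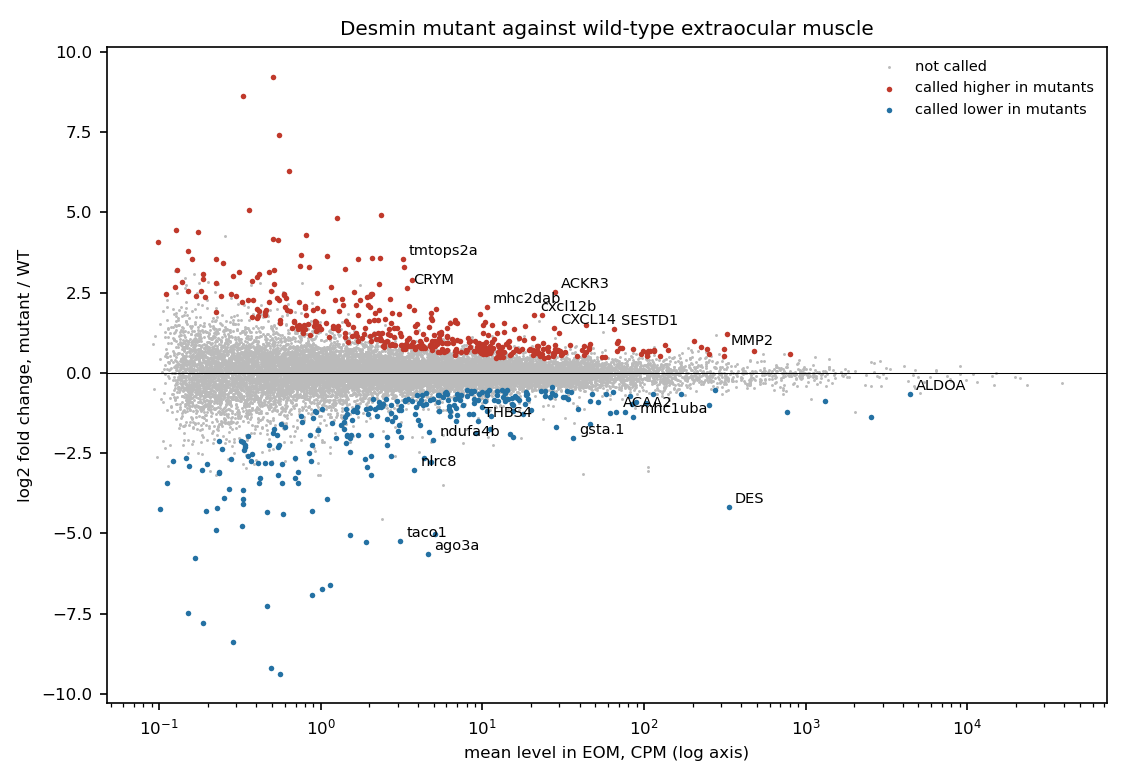
Level (mean CPM of the 6 EOM libraries, log axis) against log2 fold change (mutant over WT) for every tested gene, with called genes in red (409 higher) and blue (266 lower) and a selection of genes named. Grey points are genes not called; the large changes at the left rest on few reads, and DES (−4.18) is the strongly lowered gene at a high level.

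Macrophage and pan-leukocyte genes had the highest median of the 41 function lists. Of 37 tested members 11 rose and 0 fell by edgeR (DESeq2 called 20 higher and 1 lower, and 24 higher and 1 lower had an unadjusted edgeR p under 0.05). The share called by edgeR was 29.7%, against 3.56% of all tested genes. Of the tested members 34 had a fold change above 0, and the median log2 fold change was 0.62 against −0.02 over all tested genes. The groups did not overlap in 25 members with mutants higher and 1 with mutants lower, against 13.3% and 11.6% of all tested genes. The scavenger receptor of macrophages marco (ENSDARG00000059294.7) was at 32.9, 31.7 and 35.5 CPM in WT and 64.4, 62.3 and 48.3 CPM in mutant libraries. Every mutant library exceeded every WT library, by the least in mutant replicate 3 (edgeR log2 fold change 0.81 ± 0.13, adjusted p = 0.0204). The transcription factor PU.1, which directs myeloid cell fate, has copies named SPI1 (ENSDARG00000000767.12) and spi1a (ENSDARG00000067797.7). SPI1 was at 5.79, 7.27 and 8.04 CPM in WT and 12.7, 14.9 and 11.9 CPM in mutant libraries (edgeR log2 fold change 0.91 ± 0.15, adjusted p = 0.0212). The other copy, spi1a, was at 6.18, 7.94 and 7.09 CPM in WT and 13.5, 12.2 and 11.4 CPM in mutant libraries (edgeR log2 fold change 0.81 ± 0.13, adjusted p = 0.0203). Both copies were higher in each mutant library than in any WT library. The catalytic subunit of the phagocyte oxidase, which makes superoxide, is encoded by cybb, which had a log2 fold change of 0.90. The pan-leukocyte phosphatase CD45, ptprc, had a log2 fold change of 0.68. Other calls were regulators of the leukocyte actin skeleton and its signalling, with log2 fold changes of 0.57 for CORO1A, 0.59 for LCP1, 0.50 for rac2, 0.69 for hcls1 and 0.66 for WAS. In bulk tissue, more cells of a type and more RNA per cell cannot be told apart. Of these 11 calls, 0, 11 and 7 remained without WT replicates 1, 2 and 3 and 0, 0 and 4 without mutant replicates 1, 2 and 3, while the list's median ran from 0.54 to 0.64.

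Genes of antigen presentation moved in both directions. Of 25 tested members 7 rose and 1 fell, with a median of 0.54. The share called was 32%, against 3.56% of all tested genes. The class II chain mhc2dab (ENSDARG00000079105.5) was at 2.37, 4.83 and 5.27 CPM in WT and 17.7, 16.5 and 17 CPM in mutant libraries. All WT libraries lay far below the lowest mutant library (edgeR log2 fold change 2.04 ± 0.26, adjusted p = 0.00773), and no fit without 1 library ended the call. The invariant chain, a chaperone of class II molecules, has copies cd74a (0.67) and cd74b (ENSDARG00000036628.6), and both rose. The copy cd74b was at 163, 171 and 158 CPM in WT and 291, 308 and 259.8 CPM in mutant libraries (edgeR log2 fold change 0.80 ± 0.12, adjusted p = 0.0128). The immunoproteasome subunit PSMB8 (ENSDARG00000001303.12), which trims peptides for class I, was at 6.35, 5.64 and 5.98 CPM in WT and 11.7, 12.5 and 11.6 CPM in mutant libraries (edgeR log2 fold change 1.00 ± 0.11, adjusted p = 0.00513). The proteasome activator subunit PSME2 (ENSDARG00000033144.4) was at 30.1, 33.2 and 31.8 CPM in WT and 44.8, 46.8 and 43.6 CPM in mutant libraries (edgeR log2 fold change 0.51 ± 0.10, adjusted p = 0.0342). The class II processing protease cathepsin S, here ctss2.2 (ENSDARG00000013771.9), was at 15.2, 16.6 and 15.4 CPM in WT and 28.6, 26.9 and 21.4 CPM in mutant libraries (edgeR log2 fold change 0.71 ± 0.13, adjusted p = 0.027). All these genes were higher in every mutant library than in any WT library. The class I heavy chain mhc1zba had a log2 fold change of 0.51. In contrast, the class I heavy chain mhc1uba (ENSDARG00000075963.5) was at 147, 105.7 and 119 CPM in WT and 55.7, 41.7 and 45.8 CPM in mutant libraries. Its levels were lower in every mutant library (edgeR log2 fold change −1.38 ± 0.17, adjusted p = 0.00621). A further class I gene outside the list, mhc1zda (ENSDARG00000086877.4), showed the same direction at 42.8, 41 and 47 CPM in WT and 13.1, 13.6 and 14.2 CPM in mutant libraries (edgeR log2 fold change −1.67 ± 0.11, adjusted p = 0.00072). Reads that match several places were tallied apart in the deposited counting, so levels of such multigene families, and of the globin, myosin and troponin genes below, are uncertain. Of the 8 calls in the list, 3, 7 and 4 remained without WT replicates 1, 2 and 3 and 3, 3 and 6 without mutant replicates 1, 2 and 3.

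Genes of complement, a system that tags targets for phagocytes, and of its regulators had 3 of 16 tested members higher and none lower by edgeR (DESeq2 called 6 higher and 1 lower, and 8 higher and 2 lower had an unadjusted edgeR p under 0.05), with a median of 0.33. EdgeR called 18.75% of complement, 8.33% of lymphocyte and 9.68% of interferon-stimulated members tested, against 3.56% of all tested genes. c4b (ENSDARG00000038424.9) was at 59.9, 56.3 and 77.4 CPM in WT and 103.999, 112.2 and 106.3 CPM in mutant libraries (edgeR log2 fold change 0.74 ± 0.14, adjusted p = 0.0313). The C3 copy c3b.1 (ENSDARG00000093068.3) was at 0.395, 0.254 and 0.298 CPM in WT and 1.02, 1.34 and 1.47 CPM in mutant libraries (edgeR log2 fold change 2.02 ± 0.30, adjusted p = 0.0156). The complement inhibitor factor H, cfh (ENSDARG00000100442.2), was at 0.0911, 0.114 and 0.0746 CPM in WT and 0.497, 0.522 and 0.485 CPM in mutant libraries (edgeR log2 fold change 2.4 ± 0.37, adjusted p = 0.0166). All 3 were low or moderate in level and higher in every mutant library. Lymphocyte genes had 2 of 24 tested members higher and a median of 0.42. The T cell kinase ZAP70 (ENSDARG00000015752.9) was at 0.592, 0.597 and 0.776 CPM in WT and 1.95, 1.49 and 1.74 CPM in mutant libraries (edgeR log2 fold change 1.4 ± 0.24, adjusted p = 0.0227). The Src family kinase of B cells blk (ENSDARG00000007783.11) was at 1.4, 1.14 and 1.73 CPM in WT and 3.63, 3.53 and 2.87 CPM in mutant libraries (edgeR log2 fold change 1.23 ± 0.21, adjusted p = 0.0228). Both were present at a low level and did not overlap between genotypes. Interferon-stimulated genes had 2 higher and 1 lower of 31 tested and a median of 0.06. The antiviral GTPase mxc (ENSDARG00000024789.9) was at 0.516, 0.597 and 0.492 CPM in WT and 1.12, 1.59 and 1.29 CPM in mutant libraries (edgeR log2 fold change 1.31 ± 0.26, adjusted p = 0.0342). ifi44a8 (ENSDARG00000093857.2) was at 0.486, 0.648 and 0.433 CPM in WT and 1.69, 2 and 3.03 CPM in mutant libraries (edgeR log2 fold change 2.1 ± 0.31, adjusted p = 0.014). parp12b (ENSDARG00000057974.8) was at 7.14, 6.04 and 5.95 CPM in WT and 3.57, 3.35 and 3.85 CPM in mutant libraries (edgeR log2 fold change −0.83 ± 0.15, adjusted p = 0.0252). Without WT replicate 1, which had the highest summed level of the list (338, 220.0 and 250.3 CPM in WT and 276, 294 and 295 CPM in mutant replicates 1, 2 and 3), the median was 0.37, and without WT replicate 2 it was −0.03.

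Neutrophil and inflammatory cytokine genes had no call among 18 tested members by edgeR, and 0.16 as the median (DESeq2 called 1 higher and 0 lower, and 3 higher and 1 lower had an unadjusted edgeR p under 0.05). Of all tested genes 3515 had an unadjusted p under 0.05. The member with the highest level, srgn (ENSDARG00000077069.3), a granule proteoglycan, was at 97.1, 109.1 and 89.4 CPM in WT and 109.044, 108.4 and 98.4 CPM in mutant libraries (edgeR log2 fold change 0.10 ± 0.12, adjusted p = 0.715), with overlapping groups. The chemokine ccl19a.1 (ENSDARG00000058389.5) was at 50.8, 45.7 and 41.4 CPM in WT and 70.4, 63 and 56.1 CPM in mutant libraries. All mutant libraries were above all WT libraries, yet the change did not pass the threshold (edgeR log2 fold change 0.46 ± 0.13, adjusted p = 0.0966). Lysosomal enzyme and cathepsin genes had 3 of 43 tested members higher, with a median of 0.10. The share called was 6.98%, against 3.56% of all tested genes. The sterol carrier of the lysosome NPC2 (ENSDARG00000096979.2) was at 1.11, 1.44 and 1.43 CPM in WT and 5, 5.85 and 3.42 CPM in mutant libraries (edgeR log2 fold change 1.84 ± 0.24, adjusted p = 0.00773). The progranulin copy grna (ENSDARG00000004954.12) was at 15.1, 16.4 and 16.2 CPM in WT and 29.7, 27.8 and 26.8 CPM in mutant libraries (edgeR log2 fold change 0.82 ± 0.10, adjusted p = 0.00692). Both were separated between genotypes and were called in every fit without 1 library. Of the 11 calls in the complement, lymphocyte, interferon and lysosomal lists, 3, 11 and 9 remained without WT replicates 1, 2 and 3 and 4, 2 and 5 without mutant replicates 1, 2 and 3. Those of c4b, ifi44a8 and mxc were lost in the fit of all 12 libraries and that of parp12b with unscaled library totals.

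Chemokine ligands and receptors had 5 of 41 tested members higher and none lower by edgeR (DESeq2 called 11 higher and 2 lower, and 13 higher and 5 lower had an unadjusted edgeR p under 0.05), with a median of 0.42. EdgeR called 12.2% of the tested members, against 3.56% of all tested genes. cxcl12b (ENSDARG00000055100.5), a copy of the ligand that guides and retains leukocytes and precursor cells, was at 7.02, 11.2 and 9.92 CPM in WT and 34.4, 32.1 and 31.4 CPM in mutant libraries. The WT libraries lay close together, well under the mutant libraries (edgeR log2 fold change 1.8 ± 0.17, adjusted p = 0.00249). ACKR3 (ENSDARG00000058179.6), the scavenger receptor for that ligand, was at 13.2, 9.1 and 2.98 CPM in WT and 45.1, 59.7 and 39.1 CPM in mutant libraries. It varied between the WT libraries, with WT replicate 3 lowest, and every mutant library was higher (edgeR log2 fold change 2.51 ± 0.45, adjusted p = 0.0257). CXCL14 (ENSDARG00000056627.7) was at 14, 13.1 and 18.7 CPM in WT and 34.3, 42.5 and 43.3 CPM in mutant libraries (edgeR log2 fold change 1.4 ± 0.17, adjusted p = 0.00621). ccl38.6 (ENSDARG00000041923.9) was at 7.64, 6.11 and 8.31 CPM in WT and 17.5, 17.7 and 16.7 CPM in mutant libraries (edgeR log2 fold change 1.24 ± 0.14, adjusted p = 0.0051). The call of ccl34b.4 (0.75) was the smallest of the list. Calls of cxcl12b, CXCL14 and ccl38.6 held in every fit without 1 library, while that of ACKR3 was lost in 4 (adjusted p 0.202 without WT replicate 2) and with no filter on low counts.

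**Figure D2:**
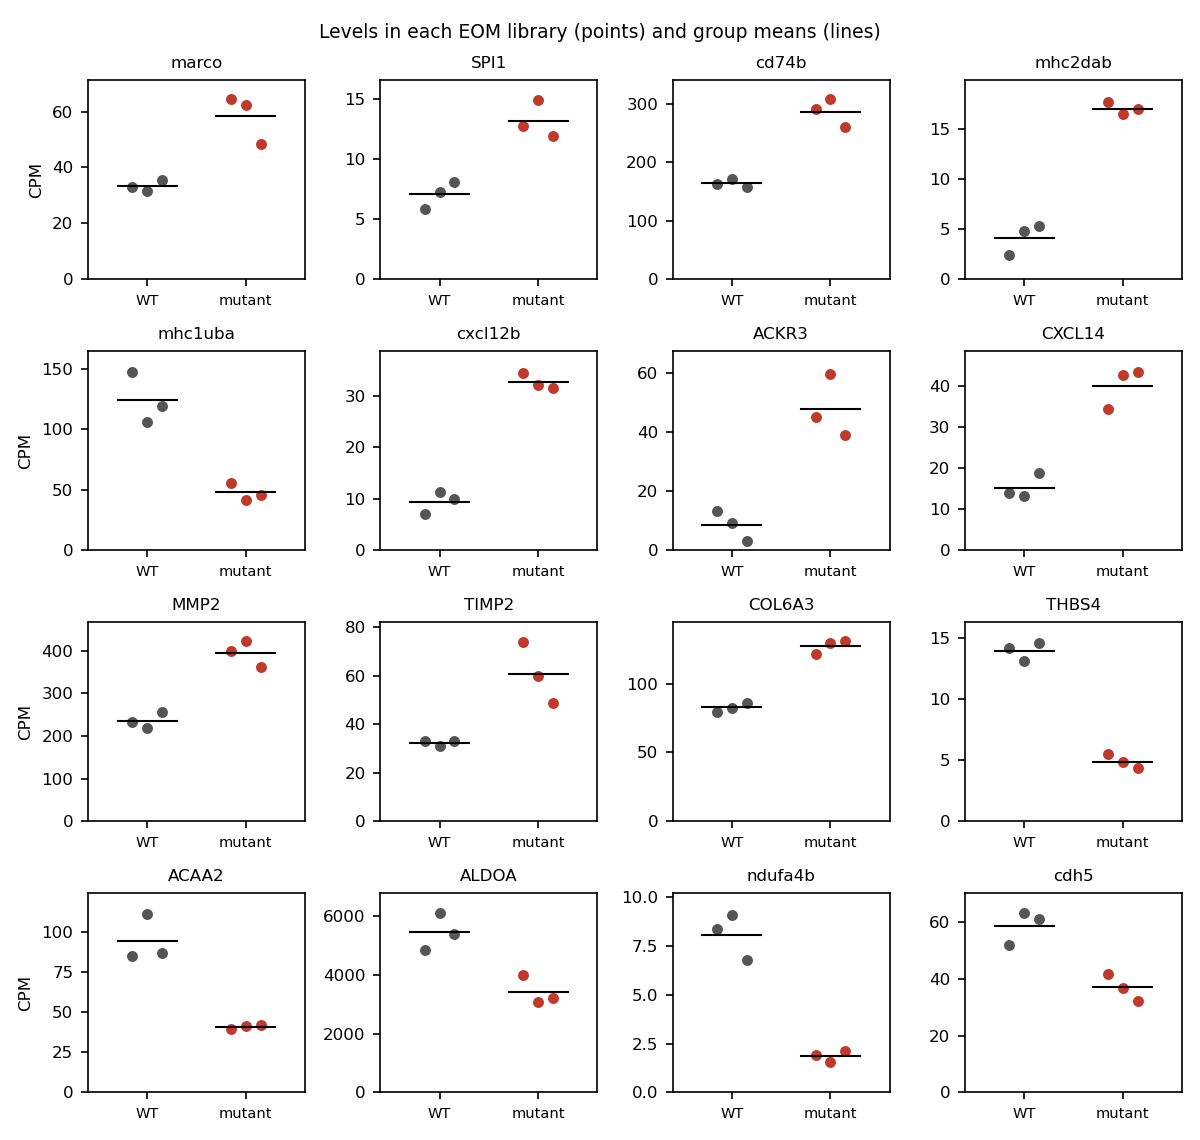
Levels (CPM, axes starting at 0) of 16 called genes in each of the 3 WT (grey) and 3 mutant (red) EOM libraries, with lines at the group means. In each panel the groups are apart, as for cxcl12b at 7.02, 11.2 and 9.92 CPM in WT and 34.4, 32.1 and 31.4 CPM in mutant libraries, and THBS4 at 14.2, 13.2 and 14.6 and 5.48, 4.83 and 4.33 CPM.

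Genes of the extracellular matrix were higher in mutants in most calls, as were 60.6% of the calls over all genes. EdgeR called 10.4% of tested collagen genes, against 3.56% of all tested genes. Of 48 tested collagen genes 5 rose and 0 fell by edgeR (DESeq2 called 8 higher and 0 lower, and 16 higher and 2 lower had an unadjusted edgeR p under 0.05), with a median of 0.22. The sum of all collagen transcripts was 1327, 1560.0 and 1478 CPM in WT and 2021, 2002 and 1793 CPM in mutant replicates 1, 2 and 3 (two-sided exact permutation test, p = 0.1, the smallest p that 3 against 3 allows). The type VI collagen gene COL6A3 (ENSDARG00000077139.6), which forms the microfibrils around muscle fibres, was at 79.4, 82.4 and 86.2 CPM in WT and 121, 129.7 and 131 CPM in mutant libraries (edgeR log2 fold change 0.63 ± 0.11, adjusted p = 0.0215). The fibril-associated col16a1 (ENSDARG00000009194.14) was at 21.3, 16.7 and 21.9 CPM in WT and 37.4, 36 and 34.9 CPM in mutant libraries (edgeR log2 fold change 0.86 ± 0.13, adjusted p = 0.0156). The fibrillar col1a1a (ENSDARG00000012405.10) was at 83.7, 95.5 and 85.2 CPM in WT and 164, 153 and 112.1 CPM in mutant libraries (edgeR log2 fold change 0.70 ± 0.15, adjusted p = 0.0485). Type XII collagen, found where fibres meet tendon and in muscle connective tissue, has copies with the same symbol. COL12A1 (ENSDARG00000019601.12) was at 4.34, 2.66 and 4.25 CPM in WT and 7.9, 8.16 and 8.78 CPM in mutant libraries (edgeR log2 fold change 1.15 ± 0.20, adjusted p = 0.0232). COL12A1 (ENSDARG00000078322.4) was at 13.2, 10.8 and 11.9 CPM in WT and 23, 22.1 and 15.7 CPM in mutant libraries (edgeR log2 fold change 0.76 ± 0.16, adjusted p = 0.043). Mutant replicate 3 was the lowest mutant library for col1a1a and for the second COL12A1 copy, and the groups did not overlap for any of these genes.

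Matrix glycoproteins and crosslinking enzymes had 3 of 52 tested members higher, 1 lower, and a median of 0.23. EdgeR called 7.69% of them and 8.33% of small leucine-rich proteoglycan members tested, against 3.56% of all tested genes. Fibronectin, FN1 (ENSDARG00000006526.12), was at 218, 188 and 198 CPM in WT and 309, 295 and 304 CPM in mutant libraries (edgeR log2 fold change 0.59 ± 0.11, adjusted p = 0.0322). The collagen and elastin crosslinking enzyme LOXL1 (ENSDARG00000054451.8) was at 35.2, 35.1 and 31.5 CPM in WT and 49.6, 54.2 and 55.4 CPM in mutant libraries (edgeR log2 fold change 0.65 ± 0.11, adjusted p = 0.0213). The basement membrane laminin chain lamc1 (ENSDARG00000036279.6) was at 103.1, 94.2 and 114 CPM in WT and 148, 148 and 153 CPM in mutant libraries (edgeR log2 fold change 0.53 ± 0.12, adjusted p = 0.0475). The genotypes were apart for all 3, and lamc1 lay closest to the threshold. The thrombospondin THBS4 (ENSDARG00000102777.3), a matrix protein of tendon and of stressed muscle, took the opposite direction. It was at 14.2, 13.2 and 14.6 CPM in WT and 5.48, 4.83 and 4.33 CPM in mutant libraries, with every mutant library far below the lowest WT library (edgeR log2 fold change −1.51 ± 0.13, adjusted p = 0.0017), and its call held in every fit without 1 library. Among small leucine-rich proteoglycans, 1 of 12 tested members rose, with a median of 0.08: osteoglycin, OGN (ENSDARG00000031489.9), was at 27.5, 25.4 and 22.4 CPM in WT and 35.2, 39.7 and 35.2 CPM in mutant libraries (edgeR log2 fold change 0.55 ± 0.12, adjusted p = 0.0447).

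Enzymes that cut the matrix and their inhibitors had 3 of 21 tested members higher and 2 lower, with a median of 0.39. The share called was 23.8%, against 3.56% of all tested genes. The gelatinase MMP2 (ENSDARG00000017676.8) was at 232, 218 and 256 CPM in WT and 399.8, 422 and 361 CPM in mutant libraries. Its membrane-bound activator MMP14 (ENSDARG00000002235.8) was at 46.3, 44.7 and 44.7 CPM in WT and 63.6, 67.7 and 60.9 CPM in mutant libraries. The inhibitor TIMP2 (ENSDARG00000061226.6), which takes part in that activation, was at 33.1, 31 and 33.3 CPM in WT and 73.8, 59.7 and 48.7 CPM in mutant libraries. Each of the 3 was higher in every mutant than in any WT library, with log2 fold changes of 0.75 ± 0.12, edgeR, adjusted p = 0.0194 for MMP2, 0.50 ± 0.10, edgeR, adjusted p = 0.0368 for MMP14 and 0.91 ± 0.15, edgeR, adjusted p = 0.0212 for TIMP2. The members that fell were present at a low level: mmp30 (ENSDARG00000045887.8) was at 2.22, 2.02 and 1.79 CPM in WT and 0.833, 0.522 and 0.609 CPM in mutant libraries (edgeR log2 fold change −1.61 ± 0.25, adjusted p = 0.0171). mmp23bb (ENSDARG00000009825.7) was at 0.364, 0.356 and 0.328 CPM in WT and 0.0621, 0.0637 and 0.0138 CPM in mutant libraries (edgeR log2 fold change −2.84 ± 0.52, adjusted p = 0.028), where the lowest mutant library had less than the floor of 3 reads.

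Fibroblast markers summed to 1621, 1749 and 1615 CPM in WT and 2303, 2354 and 1982 CPM in mutant replicates 1, 2 and 3, a ratio of means of 1.33 (exact permutation, p = 0.1). Of 23 tested markers 3 rose and 0 fell by edgeR (DESeq2 called 7 higher and 0 lower, and 13 higher and 1 lower had an unadjusted edgeR p under 0.05). A fold change above 0 was seen for 21, with a median of 0.40. EdgeR called 13% of fibroblast and 30.8% of tendon markers tested, against 3.56% of all tested genes. Besides col1a1a, CLEC3B (ENSDARG00000099500.2), tetranectin, was at 6.2, 7.36 and 5.73 CPM in WT and 12.4, 12.5 and 11.8 CPM in mutant libraries (edgeR log2 fold change 0.93 ± 0.13, adjusted p = 0.0107). FBLN2 (ENSDARG00000015156.12), fibulin 2, was at 50.4, 48 and 45.1 CPM in WT and 69, 68.6 and 64.6 CPM in mutant libraries (edgeR log2 fold change 0.50 ± 0.10, adjusted p = 0.0408). Tendon markers summed to 251, 249 and 249 CPM in WT and 316, 321 and 278 CPM in mutants; the calls among them are COL12A1 (both copies), XIRP2 and THBS4, described with the other lists. Cartilage markers summed to 159.8, 177 and 233 CPM in WT and 253, 259.6 and 240.0 CPM in mutants, with no call by edgeR among 16 tested (DESeq2 called 1 higher and 0 lower, and 3 higher and 2 lower had an unadjusted edgeR p under 0.05). Only 7 of the 16 had a fold change above 0, with a median of −0.07. The part of connective tissue cell numbers in the matrix results was not tested. Ligands and targets of TGF-beta, a growth factor that drives matrix production, had no call among 32 tested members by edgeR (DESeq2 called 0 higher and 0 lower, and 6 higher and 1 lower had an unadjusted edgeR p under 0.05), with a median of 0.15 (0.29 without WT replicate 1). The receptor TGFBR2 (ENSDARG00000034541.6) was at 82.5, 88.1 and 78.9 CPM in WT and 107.3, 113 and 97.2 CPM in mutant libraries, apart between genotypes but not past the threshold (edgeR log2 fold change 0.35 ± 0.11, adjusted p = 0.137). The target ID1 (ENSDARG00000040764.5) was at 136, 189 and 144 CPM in WT and 139.8, 109.2 and 100.5 CPM in mutant libraries, with overlap (edgeR log2 fold change −0.42 ± 0.17, adjusted p = 0.238). Of the 18 calls in the matrix, fibroblast and tendon lists, 1, 15 and 9 remained without WT replicates 1, 2 and 3 and 2, 1 and 7 without mutant replicates 1, 2 and 3. With median-of-ratios size factors the calls of lamc1, OGN and col1a1a were lost, in the fit of all 12 libraries those of OGN, mmp30, CLEC3B, FBLN2, XIRP2 and col1a1a, and with reads of either strand that of mmp23bb.

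**Figure D3:**
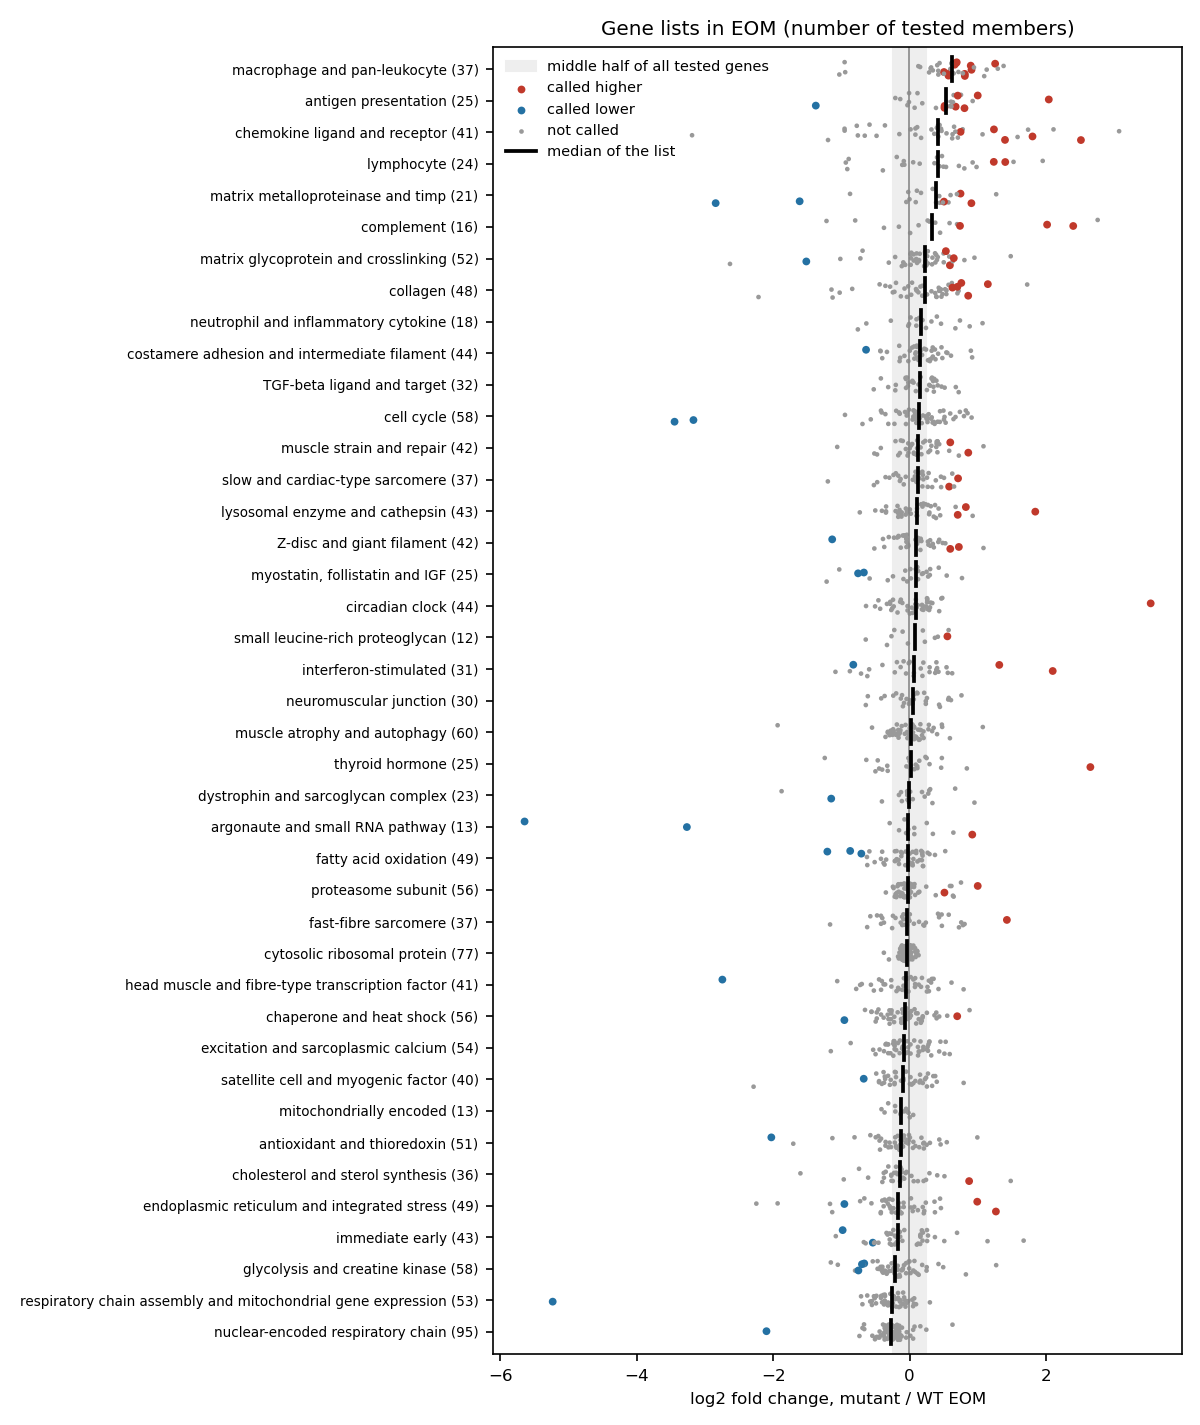
Log2 fold changes (mutant over WT EOM, horizontal axis) of the tested members of each of the 41 lists of functions, ordered by the list's median (black bar), with called members in red or blue and the others in grey. The grey band holds the middle of all tested genes from the lower to the upper quartile. Macrophage genes (0.62) stand at the top and nuclear-encoded respiratory chain genes (−0.27) at the bottom of these lists.

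Called members of the energy metabolism lists were lower in mutants, and the share called exceeded that of all tested genes in only some of these lists. The share called by edgeR was 6.12% for fatty acid oxidation and 5.17% for glycolysis and creatine kinase genes. It was 1.05% for nuclear-encoded respiratory chain and 1.89% for assembly and mitochondrial gene expression genes, against 3.56% of all tested genes. Of all tested genes 1.4% were called lower. In fatty acid oxidation 3 of 49 tested members fell and 0 rose by edgeR (DESeq2 called 0 higher and 4 lower, and 1 higher and 10 lower had an unadjusted edgeR p under 0.05). The list's median was −0.02, against −0.02 over all tested genes. With unscaled totals these medians were 0.06 and 0.08. The thiolase of the mitochondrial matrix ACAA2 (ENSDARG00000038881.6), which catalyses the last step of each oxidation cycle, was at 84.6, 111.1 and 86.6 CPM in WT and 39.3, 41.1 and 41.7 CPM in mutant libraries. The mutant libraries were nearly equal and far below the lowest WT library (edgeR log2 fold change −1.21 ± 0.13, adjusted p = 0.0051). The dehydrogenase ACADSB (ENSDARG00000098174.2), which acts on short branched chains, was at 52.9, 65.7 and 61 CPM in WT and 34.2, 31.1 and 32.7 CPM in mutant libraries (edgeR log2 fold change −0.87 ± 0.12, adjusted p = 0.00959). The carnitine palmitoyltransferase cpt1ab (ENSDARG00000062054.9), which lets long chains enter mitochondria, was at 91.2, 107.4 and 105.9 CPM in WT and 64, 56.6 and 65.4 CPM in mutant libraries (edgeR log2 fold change −0.71 ± 0.12, adjusted p = 0.0217). For these genes as well every mutant library was below every WT library.

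Of 95 nuclear-encoded respiratory chain genes 1 fell and 0 rose by edgeR (DESeq2 called 0 higher and 3 lower, and 1 higher and 9 lower had an unadjusted edgeR p under 0.05). The gene called was ndufa4b (ENSDARG00000056108.5), a small subunit now assigned to cytochrome oxidase, at 8.35, 9.06 and 6.79 CPM in WT and 1.94, 1.58 and 2.12 CPM in mutant libraries (edgeR log2 fold change −2.1 ± 0.18, adjusted p = 0.00176). The list's median was −0.27, with 88 members below 0, but the sums given above put WT replicate 2 alone high. Without WT replicate 2 the median was −0.02 and 53 of 95 members were below 0. The 13 genes encoded in mitochondrial DNA, as far as they were captured by poly-A selection, had no call by edgeR (DESeq2 called 0 higher and 0 lower, and 0 higher and 3 lower had an unadjusted edgeR p under 0.05) and a median of −0.13. MT-CO1 (ENSDARG00000063905.3) was at 40896, 40526 and 46409.8 CPM in WT and 33738, 32155 and 36682 CPM in mutant libraries (edgeR log2 fold change −0.31 ± 0.12, adjusted p = 0.208). The groups did not overlap, but the difference did not pass the threshold. Among assembly factors and mitochondrial gene expression, 1 of 53 fell and none rose by edgeR (DESeq2 called 0 higher and 4 lower, and 0 higher and 15 lower had an unadjusted edgeR p under 0.05). The gene called was taco1 (ENSDARG00000062943.6), an activator of the translation of a cytochrome oxidase subunit, at 4.6, 7.69 and 5.92 CPM in WT and 0.124, 0.242 and 0.111 CPM in mutant libraries. It was almost absent from every mutant library (edgeR log2 fold change −5.23 ± 0.34, adjusted p = 0.00072), and its call held in every fit without 1 library. The median of that list was −0.26 and −0.07 without WT replicate 2.

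Glycolysis and creatine kinase genes had 3 of 58 tested members lower and none higher by edgeR (DESeq2 called 2 higher and 7 lower, and 2 higher and 15 lower had an unadjusted edgeR p under 0.05). With unscaled totals edgeR called 1 higher. The median was −0.22 (−0.14 without WT replicate 2). The aldolase ALDOA (ENSDARG00000011665.9) was at 4831, 6104 and 5363 CPM in WT and 3979.9, 3058 and 3219.7 CPM in mutant libraries (edgeR log2 fold change −0.66 ± 0.15, adjusted p = 0.0486). The phosphoglycerate mutase pgam1b (ENSDARG00000014068.8) was at 36.5, 48.4 and 34 CPM in WT and 24, 25 and 21.6 CPM in mutant libraries (edgeR log2 fold change −0.75 ± 0.15, adjusted p = 0.0343). PFKFB2 (ENSDARG00000002037.11), which makes the activator of phosphofructokinase, was at 30.3, 32 and 42.4 CPM in WT and 21, 19.6 and 23.8 CPM in mutant libraries (edgeR log2 fold change −0.70 ± 0.15, adjusted p = 0.0492). The genotypes were apart for all 3, with the narrowest gap for ALDOA. The list's summed level was 59345, 71713 and 63385 CPM in WT and 56398, 51476 and 53889.8 CPM in mutants (exact permutation, p = 0.1), and the sum of myofibre markers, which share ckma and ckmb with it, was 66659.8, 77890.5 and 75657 and 68022, 59132 and 62842 CPM. The part of myofibre content in the lower metabolic transcripts was not tested. Of the 8 calls in the metabolic lists, 4, 7 and 6 remained without WT replicates 1, 2 and 3 and 3, 3 and 4 without mutant replicates 1, 2 and 3. The call of cpt1ab was also lost in the fit of all 12 libraries, that of ALDOA with median-of-ratios size factors, and that of PFKFB2 with unscaled totals and with a filter of at least 50 reads on average.

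In the contractile lists edgeR called 2.7% of fast-fibre and 5.41% of slow and cardiac-type members tested, against 3.56% of all tested genes. In the anchoring lists described next it called 7.14% of Z-disc and giant filament and 4.76% of muscle strain and repair members. For the costamere and the dystrophin complex lists the shares were 2.27% and 4.35%. Of 37 tested fast-fibre sarcomere genes 1 rose and 0 fell by edgeR (DESeq2 called 6 higher and 3 lower, and 8 higher and 7 lower had an unadjusted edgeR p under 0.05), with a median of −0.03. The gene called was TNNI2 (ENSDARG00000045592.6), a fast troponin I copy, at 0.881, 0.547 and 1.15 CPM in WT and 2.56, 2.66 and 1.68 CPM in mutant libraries, a low level (edgeR log2 fold change 1.43 ± 0.32, adjusted p = 0.0496). Slow and cardiac-type sarcomere genes had 2 of 37 higher and a median of 0.12 (0.25 without WT replicate 2). The cardiac-type myosin heavy chain MYH6 (ENSDARG00000079564.4) was at 657, 707 and 563 CPM in WT and 986, 949 and 938 CPM in mutant libraries, and the cardiac-type troponin T TNNT2 (ENSDARG00000100694.2) at 16.1, 17.7 and 16.1 CPM in WT and 29.6, 26.5 and 25.4 CPM in mutant libraries. All mutant libraries exceeded the WT libraries for both, with log2 fold changes of 0.58 ± 0.12, edgeR, adjusted p = 0.0447 for MYH6 and 0.71 ± 0.11, edgeR, adjusted p = 0.0159 for TNNT2. EOM is known for fibres that express such cardiac and slow isoforms beside fast ones. Summed fast sarcomere transcripts were at 88333, 100619 and 98294 CPM in WT and 92277, 79981 and 88758 CPM in mutants, with overlap (exact permutation, p = 0.3).

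Z-disc and giant filament genes, the direct neighbours of desmin in the cell, had 2 higher and 1 lower of 42 tested, with a median of 0.10. XIRP2 (ENSDARG00000071113.6), an actin-binding protein of Z-discs and junctions under strain, was at 78.5, 77.8 and 74.4 CPM in WT and 119, 121 and 108.2 CPM in mutant libraries (edgeR log2 fold change 0.60 ± 0.11, adjusted p = 0.0246). The Z-disc protein synpo2la (ENSDARG00000077293.5) was at 52.1, 51.1 and 58.4 CPM in WT and 17.8, 23.2 and 32.2 CPM in mutant libraries. Each mutant library was lower than each WT library, least so mutant replicate 3 (edgeR log2 fold change −1.13 ± 0.21, adjusted p = 0.0264). FHL2 (ENSDARG00000003991.8), a LIM protein of the Z-disc, was at 95.9, 111.2 and 110.962 CPM in WT and 186, 161 and 177 CPM in mutant libraries (edgeR log2 fold change 0.72 ± 0.12, adjusted p = 0.0209). The symbol table gives FHL2 to 2 gene IDs and does not say which of them is fhl2b, the gene in the series title. Muscle strain and repair genes had 2 of 42 higher, XIRP2 and CAPN3 (ENSDARG00000043035.7), the muscle protease calpain 3 that binds titin, at 6.61, 7.28 and 6.98 CPM in WT and 12.7, 14.2 and 10.9 CPM in mutant libraries (edgeR log2 fold change 0.86 ± 0.13, adjusted p = 0.0152). Their median was 0.12, and the groups did not overlap in 14 members with mutants higher and 1 with mutants lower. Over all tested genes these shares were 13.3% and 11.6%.

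At the membrane, costamere adhesion and intermediate filament genes had 1 of 44 tested members lower, SORBS2 (ENSDARG00000061603.8), an adaptor between actin and adhesion sites, at 7.27, 6.49 and 7.77 CPM in WT and 4.64, 4.88 and 4.29 CPM in mutant libraries (edgeR log2 fold change −0.64 ± 0.13, adjusted p = 0.0422). None rose by edgeR (DESeq2 called 5 higher and 1 lower, and 13 higher and 1 lower had an unadjusted edgeR p under 0.05). Of the members 34 had a fold change above 0 (median 0.15). The groups did not overlap in 15 with mutants higher and 1 with mutants lower, against 13.3% and 11.6% of all tested genes. The summed level was 2994, 2744 and 2923 CPM in WT and 3349, 3327 and 3318 CPM in mutants (exact permutation, p = 0.1). In the dystrophin and sarcoglycan complex, which ties the membrane to the matrix, 1 of 23 tested genes fell and none rose by edgeR (median −0.01; DESeq2 called 0 higher and 1 lower, and 3 higher and 3 lower had an unadjusted edgeR p under 0.05).

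Excitation and calcium handling had no call by edgeR among 54 tested genes (DESeq2 called 2 higher and 1 lower, and 5 higher and 6 lower had an unadjusted edgeR p under 0.05), with a median of −0.08. The calcium pump of the fast sarcoplasmic reticulum atp2a1 (ENSDARG00000020574.10) was at 16219, 16533 and 17129.8 CPM in WT and 13750.2, 10965 and 13628 CPM in mutant libraries (edgeR log2 fold change −0.38 ± 0.13, adjusted p = 0.163). Its mutant libraries were all below the WT libraries without passing the threshold. The neuromuscular junction, through which nerves reach EOM fibres at one or many sites, had no call among 30 tested genes by edgeR (DESeq2 called 1 higher and 1 lower, and 4 higher and 2 lower had an unadjusted edgeR p under 0.05). The acetylcholine receptor subunit CHRNA1 (ENSDARG00000009021.8) was at 242, 255 and 253 CPM in WT and 267, 252 and 261 CPM in mutant libraries (edgeR log2 fold change 0.06 ± 0.11, adjusted p = 0.811). Acetylcholinesterase, ACHE (ENSDARG00000031796.8), was at 671, 559 and 710.0 CPM in WT and 623, 649 and 726 CPM in mutant libraries (edgeR log2 fold change 0.05 ± 0.14, adjusted p = 0.897). The groups overlapped for both. Of the 9 calls in the contractile and anchoring lists, 0, 7 and 5 remained without WT replicates 1, 2 and 3 and 0, 0 and 3 without mutant replicates 1, 2 and 3. The calls of TNNT2, MYH6, FHL2 and XIRP2 were lost in the fit of all 12 libraries, those of MYH6 and TNNI2 with median-of-ratios size factors, those of TNNI2 and SORBS2 with unscaled totals, and that of TNNI2 with the filter of at least 50 reads.

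In the stress lists edgeR called 3.57% of chaperone and 6.12% of endoplasmic reticulum stress members tested, against 3.56% of all tested genes. Chaperone and heat shock genes, which hold misfolded filament proteins in check, had 1 higher and 1 lower of 56 tested (median −0.07, 0.09 without WT replicate 2). HSP90B1 (ENSDARG00000003570.8), the chaperone of the endoplasmic reticulum, was at 97.7, 141 and 93.8 CPM in WT and 61.2, 60.4 and 49.4 CPM in mutant libraries. WT replicate 2 was highest and all mutant libraries were lower than all WT libraries (edgeR log2 fold change −0.96 ± 0.18, adjusted p = 0.0279). Of 49 endoplasmic reticulum and integrated stress genes 2 rose and 1 fell (median −0.17, 0.01 without WT replicate 2). Both that rose encode stress sensor kinases. PERK, EIF2AK3 (ENSDARG00000062139.7), was at 2.26, 1.69 and 2.94 CPM in WT and 5.96, 5.26 and 5.29 CPM in mutant libraries (edgeR log2 fold change 1.27 ± 0.21, adjusted p = 0.0213). IRE1, ern1 (ENSDARG00000013997.13), was at 3.75, 3.09 and 4.1 CPM in WT and 5.93, 7.03 and 8.72 CPM in mutant libraries (edgeR log2 fold change 0.99 ± 0.19, adjusted p = 0.0313).

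Protein turnover showed no call in 60 tested atrophy and autophagy genes by edgeR (median 0.02; DESeq2 called 0 higher and 0 lower, and 3 higher and 4 lower had an unadjusted edgeR p under 0.05). BNIP3L (ENSDARG00000028067.7), a receptor for removal of mitochondria, was at 235, 315 and 202 CPM in WT and 199, 164 and 149 CPM in mutant libraries. SESN1 (ENSDARG00000020693.10), a stress-induced inhibitor of growth signalling, was at 298, 203 and 276 CPM in WT and 315, 412 and 353 CPM in mutant libraries. The genotypes were apart for both, in opposite directions, but neither passed the threshold (log2 fold changes −0.55 ± 0.18, edgeR, adjusted p = 0.153 and 0.48 ± 0.17, edgeR, adjusted p = 0.19). Proteasome subunits had 2 of 56 tested members higher, PSMB8 and PSME2, both counted above among antigen presentation genes, and a median of −0.02 (0.19 without WT replicate 2). That share, 3.57%, was near the 3.56% called of all tested genes. Cytosolic ribosomal protein genes had no call among 77 by edgeR (DESeq2 called 0 higher and 0 lower, and 0 higher and 1 lower had an unadjusted edgeR p under 0.05). Their median was −0.04 (0.09 without WT replicate 2). No member was without overlap in either direction, against 24.9% of all tested genes.

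EdgeR called 1.96% of antioxidant, 4.65% of immediate early and 2.78% of cholesterol and sterol synthesis members tested, against 3.56% of all tested genes. Antioxidant and thioredoxin genes had 1 of 51 lower and none higher by edgeR (DESeq2 called 2 higher and 2 lower, and 4 higher and 5 lower had an unadjusted edgeR p under 0.05). With unscaled totals edgeR called 3 higher. The gene called lower was the glutathione transferase gsta.1 (ENSDARG00000090228.5), at 64.5, 56.7 and 54.3 CPM in WT and 12.8, 13.9 and 16.3 CPM in mutant libraries. The mutant libraries were close together and far below the WT libraries (edgeR log2 fold change −2.03 ± 0.14, adjusted p = 0.00072), and the call held in every fit without 1 library. Immediate early genes, switched on within minutes of handling or activity, had 2 of 43 lower. ier2b (ENSDARG00000086881.3) was at 24.3, 28.3 and 20.2 CPM in WT and 13.4, 12.5 and 11 CPM in mutant libraries (edgeR log2 fold change −0.98 ± 0.15, adjusted p = 0.0149). ier2a (ENSDARG00000099195.2) was at 15.4, 16.6 and 14.8 CPM in WT and 11.1, 10.9 and 10.1 CPM in mutant libraries (edgeR log2 fold change −0.54 ± 0.11, adjusted p = 0.0329), with no overlap for either. In cholesterol and sterol synthesis, 1 of 36 rose, the exporter abca1b (ENSDARG00000079009.6), at 1.53, 2.16 and 2.01 CPM in WT and 3.12, 3.59 and 3.72 CPM in mutant libraries (edgeR log2 fold change 0.87 ± 0.19, adjusted p = 0.0492). Of the 10 calls in the stress and turnover lists, 2, 10 and 7 remained without WT replicates 1, 2 and 3 and 2, 2 and 3 without mutant replicates 1, 2 and 3. That of abca1b was lost with median-of-ratios size factors.

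In the lists of muscle identity edgeR called 2.5% of satellite cell and 2.44% of head muscle and fibre-type members, against 3.56% of all tested genes. In those of growth it called 3.45% of cell cycle and 8% of myostatin, follistatin and IGF members. Satellite cell and myogenic factor genes had 1 of 40 lower, the adhesion molecule JAM3 (ENSDARG00000061794.8), which takes part in myoblast fusion in zebrafish, at 212, 199 and 218 CPM in WT and 127, 125 and 142 CPM in mutant libraries (edgeR log2 fold change −0.67 ± 0.12, adjusted p = 0.0228). No myogenic transcription factor of the list was called. Head muscle and fibre-type transcription factors had 1 of 41 lower, ISL1 (ENSDARG00000004023.6), at 0.273, 0.191 and 0.179 CPM in WT and 0.0124, 0.0382 and 0.0415 CPM in mutant libraries (edgeR log2 fold change −2.74 ± 0.58, adjusted p = 0.0413), which in the mutants was at or under the floor of 3 reads. Cell cycle genes had 2 of 58 lower and none higher by edgeR (DESeq2 called 0 higher and 3 lower, and 3 higher and 3 lower had an unadjusted edgeR p under 0.05). Without WT replicate 2 edgeR called 3 higher and 2 lower. The survivin copy birc5b (ENSDARG00000055655.6) was at 0.987, 1.33 and 0.627 CPM in WT and 0.112, 0.127 and 0.0831 CPM in mutant libraries (edgeR log2 fold change −3.17 ± 0.41, adjusted p = 0.00807). The ribonucleotide reductase subunit RRM2 (ENSDARG00000020711.10) was at 0.881, 2.03 and 1.06 CPM in WT and 0.0994, 0.217 and 0.0415 CPM in mutant libraries (edgeR log2 fold change −3.45 ± 0.56, adjusted p = 0.0195). Both were already low in WT, and 40 of the 58 members had a fold change above 0 (median 0.13, 0.04 without WT replicate 1 and 0.39 without WT replicate 2). Of myostatin, follistatin and IGF genes, 2 of 25 fell, both encoding growth factor binding proteins. IGFBP2 (ENSDARG00000052470.5) was at 62.7, 72.5 and 78.6 CPM in WT and 50.2, 40.2 and 43.7 CPM in mutant libraries (edgeR log2 fold change −0.67 ± 0.13, adjusted p = 0.0345). IGFBP7 (ENSDARG00000104138.3) was at 14.3, 19.6 and 16.9 CPM in WT and 11.6, 9.68 and 8.74 CPM in mutant libraries (edgeR log2 fold change −0.76 ± 0.15, adjusted p = 0.0374).

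Outside growth control, CRYM (ENSDARG00000062817.7), a thyroid hormone binding protein of muscle cytosol, was at 0.835, 0.902 and 1.07 CPM in WT and 3.9, 6.8 and 6.91 CPM in mutant libraries, the 1 call among 25 thyroid hormone genes (edgeR log2 fold change 2.65 ± 0.26, adjusted p = 0.00328). The only call among 44 circadian clock genes and light sensors was the opsin tmtops2a (ENSDARG00000061515.7), at 0.714, 0.559 and 0.254 CPM in WT and 6.75, 5.62 and 5.36 CPM in mutant libraries (edgeR log2 fold change 3.53 ± 0.33, adjusted p = 0.00242); no core clock gene was called. Among 13 argonaute and small RNA pathway genes 2 fell and 1 rose. EdgeR called 23.1% of this list, 4% of thyroid hormone and 2.27% of circadian clock members tested, against 3.56% of all tested genes. ago3a (ENSDARG00000059888.6) was at 9.04, 8.55 and 9.46 CPM in WT and 0.0994, 0.204 and 0.235 CPM in mutant libraries. It was nearly absent from each mutant library (edgeR log2 fold change −5.64 ± 0.27, adjusted p = 0.000205). AGO1 (ENSDARG00000092644.4) was at 0.531, 0.953 and 0.821 CPM in WT and 0.112, 0 and 0.125 CPM in mutant libraries (edgeR log2 fold change −3.27 ± 0.72, adjusted p = 0.0492). The processing enzyme DICER1 (ENSDARG00000001129.12) was at 4.13, 2.97 and 4.61 CPM in WT and 6.7, 6.69 and 8.68 CPM in mutant libraries (edgeR log2 fold change 0.92 ± 0.20, adjusted p = 0.0473). Of the 11 calls in these regulator lists, 5, 7 and 7 remained without WT replicates 1, 2 and 3 and 3, 5 and 6 without mutant replicates 1, 2 and 3. RRM2 had a log2 fold change of −4.18 without mutant replicate 2, and AGO1, whose call was lost without any of the 6 libraries and with unscaled totals, one of −2.68 without mutant replicate 2. Calls of ISL1, JAM3 and DICER1 were also lost with unscaled totals, that of ISL1 with no filter and, like IGFBP2, in the fit of all 12 libraries, that of DICER1 with the filter of at least 50 reads, and that of IGFBP7 with reads of either strand.

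Markers of other cell types were read as sums in each library. Endothelial markers were at 406, 508 and 466 CPM in WT and 373, 346 and 351 CPM in mutant replicates 1, 2 and 3, a ratio of means of 0.775 (exact permutation, p = 0.1). Every mutant library was lower than every WT library. Of 29 tested markers 1 fell and none rose by edgeR (DESeq2 called 0 higher and 2 lower, and 1 higher and 9 lower had an unadjusted edgeR p under 0.05), with a median of −0.27. The share called by edgeR was 3.45%, against 3.56% of all tested genes (1.4% called lower). Vascular cadherin, cdh5 (ENSDARG00000075549.4), was at 51.9, 63.4 and 61 CPM in WT and 41.8, 36.9 and 32.3 CPM in mutant libraries (edgeR log2 fold change −0.66 ± 0.13, adjusted p = 0.0351). The groups did not overlap in 9 markers with mutants lower and in 1 with mutants higher, against 11.6% and 13.3% of all tested genes. Erythrocyte markers were at 1969.7, 2764 and 1335 CPM in WT and 1213, 1312 and 949 CPM in mutants, again with all mutant libraries lower (exact permutation, p = 0.1); with unscaled totals the ratio of means was 0.621 and the exact p was 0.2. Of 13 tested, 2 fell (15.4%), against 1.4% of all tested genes called lower. The globin hbae4 (ENSDARG00000045144.5) was at 13.6, 19.9 and 9.88 CPM in WT and 3.69, 5.29 and 2.82 CPM in mutant libraries (edgeR log2 fold change −1.87 ± 0.30, adjusted p = 0.0172). The carbonic anhydrase cahz (ENSDARG00000011166.7), which a retina list also holds, was at 157, 162 and 91.8 CPM in WT and 75.4, 73.5 and 62.5 CPM in mutant libraries (edgeR log2 fold change −0.95 ± 0.21, adjusted p = 0.0492). How far blood content or vessel content at dissection bears on these sums was not tested.

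Photoreceptor and retina transcripts were present in EOM libraries at levels that differed between libraries of the same genotype. Of 41 tested photoreceptor genes 2 fell (4.88%), against 1.4% of all tested genes called lower. The channel subunit CNGA3 (ENSDARG00000012297.9) was at 4.48, 7.09 and 3.45 CPM in WT and 0.969, 1.64 and 1.12 CPM in mutant libraries (edgeR log2 fold change −2.0 ± 0.31, adjusted p = 0.0166). The opsin kinase GRK7 (ENSDARG00000055534.6) was at 0.714, 0.75 and 0.373 CPM in WT and 0.0746, 0.051 and 0.18 CPM in mutant libraries (edgeR log2 fold change −2.58 ± 0.54, adjusted p = 0.0408). The list's median was −0.86 with all libraries and −0.06 without WT replicate 1. GRK7 moved from −2.58 to −3.26 without mutant replicate 3. Lens markers summed to 5.16, 4.91 and 5.77 CPM in WT and 3.86, 3.72 and 4.91 CPM in mutants, with 7 of 23 members at 0 reads. Sums of Schwann cell and myelin markers (2028, 2273 and 2121 CPM in WT, 2162, 2138 and 2249 CPM in mutants), adipocyte markers (1294, 1411 and 1231 and 1241, 1290.1 and 1154 CPM), bone markers (96.2, 114 and 85.6 and 98.2, 100.1 and 99.5 CPM), pigment cell markers (16.8, 13 and 9.92 and 13.4, 13.4 and 12.9 CPM) and smooth muscle markers (526, 673 and 599.8 and 628, 624 and 576 CPM) overlapped between genotypes. So did those of neurons (44.3, 32.4 and 25.7 and 23.9, 34 and 26.4 CPM), of other retina cells (852, 932 and 673 and 763, 834 and 691 CPM), of keratinocytes and epithelium (2024, 1817 and 1724 and 2196, 2161 and 1742 CPM) and of hepatocytes (1129, 1152 and 865 and 1354, 1359.9 and 974 CPM). Ionocyte and gill markers were at 1091, 1358 and 1075 CPM in WT and 1067, 1031 and 1044 CPM in mutants, with no call by edgeR or DESeq2 among 8 tested and 0 at an unadjusted p under 0.05. These sums did not overlap. Thrombocyte markers were at 444, 379 and 379 CPM in WT and 567, 532 and 525 CPM in mutants, a sum that includes FN1, the only call of that list. Of the 5 calls in the endothelial, erythrocyte, photoreceptor and retina lists, 0, 3 and 4 remained without WT replicates 1, 2 and 3 and 0, 2 and 1 without mutant replicates 1, 2 and 3. That of cahz was lost with the filter of at least 50 reads and in the fit of all 12 libraries.

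**Figure D4:**
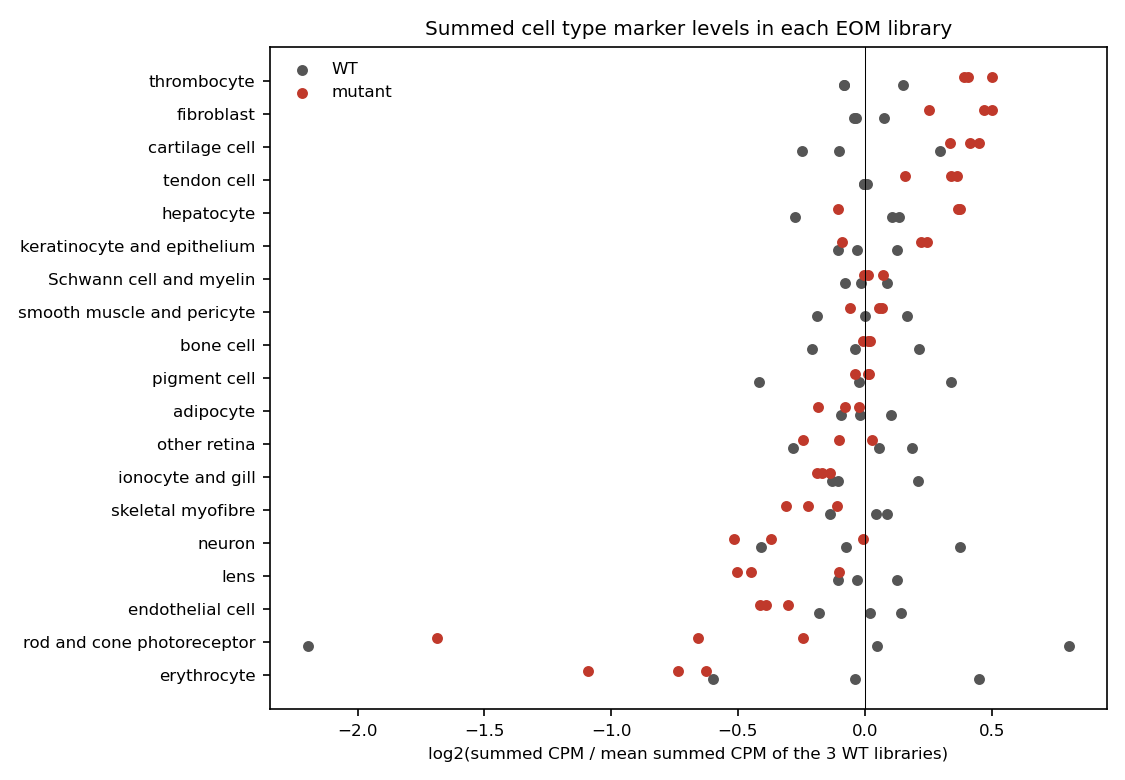
Summed level of each cell type's markers in each EOM library, as log2 of the sum over the mean of the 3 WT libraries (horizontal axis), with WT libraries in grey and mutant libraries in red. Fibroblast sums (ratio 1.33) lie right of the WT libraries, endothelial sums (0.775) left of them, and photoreceptor sums spread widely within each genotype.

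Beyond the lists, the largest changes among called genes with a symbol, a level of at least 5 CPM in the higher group and no overlap were taken. The 15 largest increases ran from 1.63 to 3.53 on the log2 scale, and 13 of them were also called in the same direction in trunk. The share of all genes called in trunk is not given here, so this count has no background to be read against. Among those with a gene name not described above, stoml3a (ENSDARG00000079914.5) was at 0.972, 2.17 and 1.49 CPM in WT and 5.88, 6.36 and 5.84 CPM in mutant libraries. TCIM (ENSDARG00000076858.3) was at 1.87, 2.31 and 2.03 CPM in WT and 6.97, 10.5 and 5.01 CPM in mutant libraries. hnrnpa0a (ENSDARG00000089302.6), which encodes an RNA-binding protein, was at 4.84, 3.7 and 4.07 CPM in WT and 13.5, 14.6 and 16.9 CPM in mutant libraries. These lay apart between genotypes, as the rule required, with TCIM lowest in mutant replicate 3 among mutants. ank2a (ENSDARG00000009026.10), an ankyrin gene, was at 2.11, 1.45 and 3.18 CPM in WT and 6.45, 6.8 and 8.86 CPM in mutant libraries. PIK3R3 (ENSDARG00000034409.7), a regulatory subunit of PI3 kinase, was at 3.04, 4.63 and 2.28 CPM in WT and 8.6, 12.3 and 9.9 CPM in mutant libraries. By the same rule each of the 5 was higher in every mutant library. Their log2 fold changes were 1.96, 1.85, 1.84, 1.72 and 1.63 in that order (edgeR, adjusted p from 0.00165 to 0.02). Only hnrnpa0a among these 5 kept its call in every fit without 1 library. Genes known by a clone name made up 5 of the 15, among them zgc:171242 (ENSDARG00000078551.5), at 2.02, 2.19 and 2.09 CPM in WT and 8.23, 8.96 and 7.67 CPM in mutant libraries (edgeR log2 fold change 1.98 ± 0.14, adjusted p = 0.000746). si:ch211-223g7.7 (ENSDARG00000099825.2) was at 0.714, 0.178 and 1.76 CPM in WT and 6.36, 4.92 and 8.02 CPM in mutant libraries (edgeR log2 fold change 2.88 ± 0.61, adjusted p = 0.0442). Its call was lost in 4 fits without 1 library, with no filter on low counts and when a mean of 50 reads was required, and its log2 fold change moved from 2.88 to 3.88 without WT replicate 3.

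The 15 largest decreases ran from −1.67 to −5.64, and 9 of the 13 that were tested in trunk were called lower there too. This count also lacks the share of all genes called in trunk. Besides DES, ago3a, taco1 and other genes given above, nlrc8 (ENSDARG00000076819.7), of the NLR family of pattern receptors, was at 6.24, 7.88 and 6.22 CPM in WT and 1.01, 0.701 and 0.761 CPM in mutant libraries (edgeR log2 fold change −3.04 ± 0.20, adjusted p = 0.00072). NPFFR1 (ENSDARG00000111997.1), a neuropeptide receptor, was at 8.81, 6.02 and 7.71 CPM in WT and 0.957, 1.35 and 1.3 CPM in mutant libraries (edgeR log2 fold change −2.64 ± 0.22, adjusted p = 0.00151). The mutant libraries were far below the WT libraries for both, and no overlap was a condition of the choice. acot15 (ENSDARG00000045522.8), an acyl-CoA thioesterase gene by name, was at 8.4, 7.22 and 6.54 CPM in WT and 1.81, 2.56 and 1.73 CPM in mutant libraries (edgeR log2 fold change −1.86 ± 0.20, adjusted p = 0.00424), and lost its call in the fit of all 12 libraries. ITLN1 (ENSDARG00000095082.5), an intelectin that binds microbial sugars, was at 11.8, 8.91 and 8.92 CPM in WT and 0.0124, 0.841 and 0.0554 CPM in mutant libraries (edgeR log2 fold change −5.01 ± 0.87, adjusted p = 0.025). Mutant replicate 2 was the highest mutant library, and the log2 fold change without it was −8.15. The call was lost in 4 fits without 1 library, with no filter on low counts and with the replicate numbers as a block. Clone-named genes made up 3 of the 15, with si:ch211-114n24.6 (ENSDARG00000036700.7) at 26.2, 27.4 and 21.1 CPM in WT and 6.2, 5.4 and 7.05 CPM in mutant libraries (edgeR log2 fold change −2.0 ± 0.15, adjusted p = 0.0011).

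Calls were also placed along the gene order of a RefSeq annotation, for the 12910 tested genes whose symbol was unique, of which 3.37% were called. Within 50 genes of desma, 3 of 37 placed genes were called (MGAT4A, si:ch211-214p13.3 and si:dkey-4e7.3), and within 50 genes of desmb 4 of 27 (DYTN, GCA, st6gal2b and tmtops2a). Over their whole chromosomes, those neighbours included, 5.25% of 457 genes on that of desma and 3.55% of 563 on that of desmb were called.

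The effect in EOM was last compared with that in trunk. A test of the difference between the effects called 18 of 19687 tested genes (0.0914%), 6 with a more positive and 12 with a more negative effect in EOM. The 10 with the smallest adjusted p are given here. THBS4 fell in EOM and rose in trunk (0.87 ± 0.15, edgeR, adjusted p = 0.00791), a difference of −2.36 ± 0.20, edgeR, adjusted p = 0.000252. For ndufa4b, which fell in EOM, the trunk value was 0.18 ± 0.16, edgeR, adjusted p = 0.543, and the difference was −2.26 ± 0.24, edgeR, adjusted p = 0.00159. SESTD1 (ENSDARG00000040614.8), a phospholipid-binding protein with spectrin repeats, was at 30.7, 44.7 and 34.4 CPM in WT and 105.5, 96.6 and 81.4 CPM in mutant libraries in EOM (edgeR log2 fold change 1.37 ± 0.17, adjusted p = 0.00621) and had a trunk value of 0.01 ± 0.14, edgeR, adjusted p = 0.98 (difference 1.38 ± 0.22, edgeR, adjusted p = 0.033). The scaffold protein DLG2 (ENSDARG00000099323.2) was at 5.15, 4.88 and 5.85 CPM in WT and 9.66, 11.8 and 11.8 CPM in mutant libraries and rose in EOM (edgeR log2 fold change 1.07 ± 0.14, adjusted p = 0.00834) while it fell in trunk (−0.97 ± 0.26, edgeR, adjusted p = 0.0476), a difference of 2.06 ± 0.30, edgeR, adjusted p = 0.0187.

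For txnb, a second TNNI2 copy and dhrs11b.1 the effect was higher in trunk. The thioredoxin txnb (ENSDARG00000044125.3) was at 5.89, 5.1 and 3.25 CPM in WT and 9.37, 11.3 and 7.68 CPM in mutant libraries in EOM, apart between genotypes but not called (edgeR log2 fold change 0.99 ± 0.23, adjusted p = 0.0581), against a trunk value of 4.83 ± 0.30, edgeR, adjusted p = 7.11e-05 (difference −3.82 ± 0.41, edgeR, adjusted p = 0.00163). A second fast troponin I copy, TNNI2 (ENSDARG00000035958.9), was at 411, 436 and 472 CPM in WT and 739.6, 656 and 564 CPM in mutant libraries in EOM, also apart and not called (edgeR log2 fold change 0.57 ± 0.13, adjusted p = 0.0568), against 2.84 ± 0.24, edgeR, adjusted p = 0.000201 in trunk (difference −2.26 ± 0.27, edgeR, adjusted p = 0.00426). The dehydrogenase gene dhrs11b.1 (ENSDARG00000031299.7) rose in both, from 3.23, 2.67 and 2.7 CPM in the WT to 5.73, 5.63 and 5.09 CPM in the mutant libraries of EOM (edgeR log2 fold change 0.94 ± 0.15, adjusted p = 0.0194), and by 2.54 ± 0.18, edgeR, adjusted p = 7.11e-05 in trunk (difference −1.58 ± 0.23, edgeR, adjusted p = 0.0187). zgc:110699 (ENSDARG00000017474.7) was at 4.39, 4.16 and 4.12 CPM in WT and 2.06, 1.71 and 2.35 CPM in mutant libraries and fell in EOM (edgeR log2 fold change −1.04 ± 0.18, adjusted p = 0.0215) but rose in trunk (1.07 ± 0.23, edgeR, adjusted p = 0.02; difference −2.1 ± 0.30, edgeR, adjusted p = 0.0187). si:dkey-193e13.8 (ENSDARG00000097553.2) was at 1.43, 1.55 and 1.45 CPM in WT and 2.39, 2.59 and 2.63 CPM in mutant libraries in EOM, not called (edgeR log2 fold change 0.78 ± 0.18, adjusted p = 0.052), and fell in trunk (−1.58 ± 0.25, edgeR, adjusted p = 0.00487; difference 2.37 ± 0.29, edgeR, adjusted p = 0.00435). The small G protein rasd2b (ENSDARG00000026383.9) was at 1.66, 1 and 1.27 CPM in WT and 0.435, 0.522 and 0.512 CPM in mutant libraries in EOM (edgeR log2 fold change −1.41 ± 0.28, adjusted p = 0.0368), its calls there and for the difference were lost with unscaled totals, and it was too low in trunk for a test within that tissue (difference −4.45 ± 0.70, edgeR, adjusted p = 0.0336). The number of genes whose effects differed rested on single libraries, with 5 to 19 calls in 12 fits that each left out 1. The macrophage, chemokine, matrix, fatty acid oxidation and glycolysis genes named above, THBS4 apart, were not among the 18. DESeq2 called 192 genes for the difference, so absence from the 18 does not show equal effects in both tissues.

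**Figure D5:**
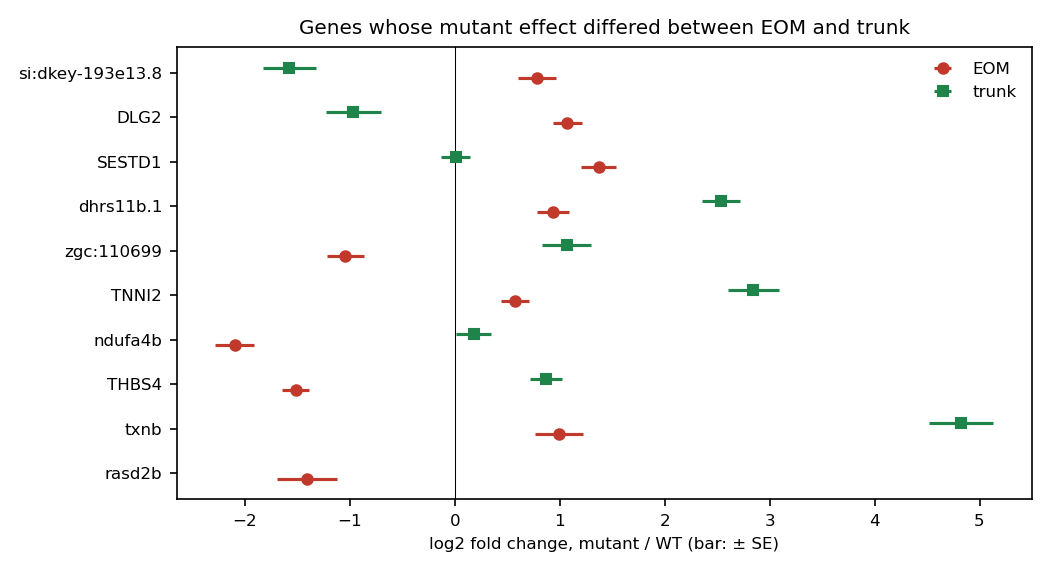
Log2 fold change (mutant over WT, with bars of ± SE) in EOM (red circles) and trunk (green squares) of the 10 genes with the smallest adjusted p for the difference between tissues. THBS4, DLG2 and zgc:110699 lie on opposite sides of 0 with both effects called, and rasd2b has no trunk point because it was too low there to be tested.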

How the data were processed

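Zebrafish EOM and trunk muscle libraries were made from poly-A selected RNA with a stranded kit, per the labels' protocols. The deposited tables hold raw read counts per gene, made by the authors with STAR on GRCz11, and DESeq2 is also named, per the submitters' processing notes, which give no versions. The count column used is the one that matches the strand of these libraries (the opposite strand held 2.94% to 3.18% of the reads in genes in EOM); reads mapping to several places or to no gene were tallied apart by the counter and left out. EOM libraries held 50789582 to 69946116 counted reads, and a gene with fewer than 3 reads in a library was taken as at the floor. Depth sets the counting error of single libraries only.

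Each of 32520 gene IDs was named from a symbol table, which gave a symbol for 29201. Mutant and WT EOM libraries (3 against 3) were compared with the quasi-likelihood test of edgeR 4.0.16 (R 4.3.3, limma 3.58.1; robust, TMM, filterByExpr, Benjamini-Hochberg adjustment over all tested genes); the SE is the log2 fold change divided by the root of F. The difference between tissues was tested as an interaction in all 12 libraries, taken as independent. The titles use the same group numbers in both tissues and do not say whether these mark the same fish. A possible pairing of EOM with trunk was therefore left out of that test. Effects within trunk came from the same edgeR test on the 6 trunk libraries. Summed levels were compared with two-sided exact permutation tests, whose smallest p is 0.1. Both fits were tested on simulated data with 200 changed genes. Alternatives were DESeq2 1.42.0, other scalings and filters, counts of either strand, a fit of all 12 libraries, a replicate block and leaving out each library.

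The members and lists were chosen with earlier results of these data known. The lists had 2035 entries, of which 145 matched no symbol; 2 further entries were dropped because the name they matched is another gene. Named were both desmin copies, the 15 largest changes in each direction among called genes with a symbol, at least 5 CPM in the higher group and no overlap, up to 4 called members of each list and direction by adjusted p (or, with none called, the members with the highest level), and the 10 genes with the smallest adjusted p for the difference between tissues. Called members of a list outside that rule are given with their fold change only. Some genes that the counts include are not reported here by name.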

Additional observations from a re-analysis of the deposited data

Results flagged for a closer look

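A test of the difference in the mutant effect between EOM and trunk called 18 genes (edgeR, adjusted p under 0.05 over 19687 genes). The 10 with the smallest adjusted p were taken, so their number and their passing follow from that choice. Values are the log2 fold change in EOM minus that in trunk. The difference was positive, with a higher value in EOM, for si:dkey-193e13.8 (2.37), DLG2 (2.06) and SESTD1 (1.38). It was negative for rasd2b (−4.45), txnb (−3.82), THBS4 (−2.36), ndufa4b (−2.26), TNNI2 (ENSDARG00000035958.9, −2.26), zgc:110699 (−2.1) and dhrs11b.1 (−1.58). Of these, txnb, TNNI2 and si:dkey-193e13.8 were not called in EOM itself, and their cause was not tested.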

How the results depend on the processing

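None of the 117 calls for named genes changed sign under any alternative run. These genes had been picked by adjusted p in the same libraries, and the largest changes also for no overlap. Their kept signs follow largely from that choice and are no separate support. Of the 60 values of named genes that were not called, 13 changed sign under at least 1 alternative. Medians of 30 of 60 gene lists changed sign under at least 1 alternative, 14 of them with unscaled totals, 13 without WT replicate 2, 11 without WT replicate 3 and 5 by DESeq2. DESeq2 called 1468 genes in EOM (798 higher, 670 lower), against 675 by edgeR (409 and 266), and shared 674 of them; for the difference between tissues it called 192 against 18. With a mean of at least 50 reads that difference had 11 calls. With unscaled totals, median-of-ratios factors, no filter, either strand and all 12 libraries the EOM count was 745, 658, 782, 697 and 811. Leaving out 1 library gave 127 to 648 calls in EOM (69 to 400 higher, 55 to 256 lower), with 161 without WT replicate 1, 127, 131 and 255 without mutant replicates 1, 2 and 3, and 5 to 19 calls for the difference. Each such fit has fewer samples, and those without WT replicates 2 and 3 gave 648 and 561 calls in EOM. The cause was not tested. The main fit did not treat the replicate numbers as pairs. Deviations of same-numbered libraries correlated at −0.21, 0.22 and 0.26. WT replicate 3 correlated best with its own number, and so did WT replicate 2, by little (0.22 against 0.19 with mutant replicate 1). WT replicate 1 did not. Whether the numbers mark a shared origin was not tested. A replicate block gave 1191 calls (689 higher, 502 lower) and 6 for the difference. Among named genes the block ended 5 calls in EOM and added 5. Depth limits the genes of a few reads, such as ISL1, AGO1 and mmp23bb.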

Other observations

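Called genes outside the lists included further leukocyte and matrix genes; the groups below were put together after their values were seen, so their counts are descriptions. In a group of 12 leukocyte signalling and myeloid genes, all chosen among higher calls, log2 fold changes ran from 0.56 to 2.02. The class II chain mhc2daa (ENSDARG00000031745.9) was at 134, 141 and 137 CPM in WT and 268, 287 and 254 CPM in mutant libraries (edgeR log2 fold change 0.98 ± 0.11, adjusted p = 0.0051). The oxidase subunit NCF4 (ENSDARG00000040812.7) was at 0.304, 0.521 and 0.298 CPM in WT and 1.59, 1.38 and 1.63 CPM in mutant libraries (edgeR log2 fold change 2.02 ± 0.30, adjusted p = 0.0148). The mannose receptor mrc1b (ENSDARG00000038822.8), a macrophage and vessel gene, was at 29.4, 35.6 and 26.9 CPM in WT and 51.1, 66.9 and 47.1 CPM in mutant libraries (edgeR log2 fold change 0.85 ± 0.16, adjusted p = 0.0313). In a group of 13 secreted matrix genes the values ran from 0.51 to 1.49. OLFML3 (ENSDARG00000062171.6) was at 4.95, 5.68 and 7.49 CPM in WT and 17.3, 18.7 and 14.6 CPM in mutant libraries (edgeR log2 fold change 1.49 ± 0.17, adjusted p = 0.00564). FIBIN (ENSDARG00000087196.5) was at 17.8, 19.9 and 15.7 CPM in WT and 38.7, 50.9 and 36.7 CPM in mutant libraries (edgeR log2 fold change 1.24 ± 0.16, adjusted p = 0.00733). The Wnt inhibitor SFRP1 (ENSDARG00000057678.5) was at 1.66, 2.41 and 2.09 CPM in WT and 5.44, 6.64 and 4.83 CPM in mutant libraries (edgeR log2 fold change 1.46 ± 0.20, adjusted p = 0.00999). Mutant libraries were above WT libraries for each of these 6 genes.

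Among lower calls were 7 mitochondrial genes, from −1.50 to −0.55. MICU3 (ENSDARG00000074255.5), a regulator of mitochondrial calcium uptake, was at 19.7, 18.7 and 22.3 CPM in WT and 9.27, 10.7 and 10.6 CPM in mutant libraries (edgeR log2 fold change −0.98 ± 0.12, adjusted p = 0.00692). The outer membrane channel VDAC1 (ENSDARG00000045132.8) was at 137, 155 and 127 CPM in WT and 94.7, 86.3 and 84.4 CPM in mutant libraries (edgeR log2 fold change −0.66 ± 0.12, adjusted p = 0.027). The glycogen-targeting phosphatase subunit ppp1r3aa (ENSDARG00000090468.3) was at 92.5, 129.9 and 99.2 CPM in WT and 47.3, 45 and 45.5 CPM in mutant libraries (edgeR log2 fold change −1.22 ± 0.14, adjusted p = 0.00601), one of 5 glycogen and amino acid genes from −1.60 to −0.62. Of 8 other muscle genes 3 rose and 5 fell: the caveolin cav4a (ENSDARG00000003632.6) was at 11.9, 13.6 and 12 CPM in WT and 4.24, 5.34 and 5.8 CPM in mutant libraries (edgeR log2 fold change −1.28 ± 0.15, adjusted p = 0.00583). KLHL41 (ENSDARG00000068888.5), which stabilises thin filament proteins, was at 22.5, 20.6 and 23.1 CPM in WT and 35.2, 34.9 and 38.3 CPM in mutant libraries (edgeR log2 fold change 0.71 ± 0.11, adjusted p = 0.0156). The globin HBE1 (ENSDARG00000097238.3) was at 1053, 1456 and 730.1 CPM in WT and 516, 502 and 361 CPM in mutant libraries (edgeR log2 fold change −1.23 ± 0.25, adjusted p = 0.0374), beside the lower sum of erythrocyte markers; the part of blood content was not tested. Of the genes given, mhc2daa, OLFML3, FIBIN, MICU3, ppp1r3aa and cav4a kept their call in every fit without 1 library.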
